A study of Homo sapiens with 54 samples.

Results

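Keratins are the intermediate filament proteins of epithelial cells, and 10 of them are described here: KRT4, KRT7, KRT8, KRT13, KRT15, KRT18, KRT19, KRT20, KRT23 and KRT80. They are 10 of the 59368 genes in the deposited gene table, and the set was chosen by the measured rise of KRT4 under 5-fluorouracil (5-FU) in sensitive DLD-1 cells. The values of that comparison are therefore given, for all 10 genes, as a description with no test. RNA was sequenced from the colorectal cancer lines HT-29, DLD-1 and HCT-116, each as 5-FU-sensitive cells and as a 5-FU-resistant counterpart that the study obtained by passaging in rising 5-FU. The study kept the resistant cells in 5-FU at a concentration above the 10 µM of the treatment. Cells of both kinds received 10 µM uracil for 24 h (the control, the natural base of which 5-FU is a fluorinated analogue), 10 µM 5-FU for 24 h, or 5-FU with irradiation (5-FU+IR). Per the study's methods, irradiation followed the 24 h of 5-FU and a change of medium. Its dose was set by the radiosensitivity of each line, so it differed between the lines. There were 18 conditions of 3 replicates, 54 libraries in all. Each line stands for 1 tumour and each resistant counterpart, as far as the methods say, for 1 selected population. The study's methods call the replicates biological triplicates, and p-values measure the spread between them.

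Keratin filaments are built from pairs of a type I (acidic) and a type II (basic) keratin. KRT8 (type II) with KRT18 or KRT19 (type I) forms the filaments of simple epithelia such as the gut lining, KRT20 (type I) marks differentiated intestinal cells, and KRT7 (type II) is common in ducts but usually low in colon. KRT4 (type II) and KRT13 (type I) are the pair of the upper layers of non-keratinized stratified mucosa, for example in the oesophagus, and KRT15 (type I) marks basal cells of stratified epithelia. KRT23 (type I) and KRT80 (type II) are less studied members.

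The genes lie in the keratin clusters of chromosomes 12 and 17. On GRCh38 with GENCODE annotation, the type II genes KRT80 (52168996 to 52192014, minus strand), KRT7 (52232520 to 52252186, plus strand), KRT4 (52806549 to 52814116, minus strand) and KRT8 (52897187 to 52949954, minus strand) lie on chromosome 12. KRT18 (52948871 to 52952906, plus strand), a type I gene, lies beside KRT8 on chromosome 12, and the annotated spans of the pair overlap on opposite strands. The type I genes KRT20 (40875889 to 40885242), KRT23 (40922700 to 40937646), KRT13 (41500981 to 41505705), KRT15 (41513745 to 41522529) and KRT19 (41523617 to 41528308) lie on chromosome 17, all on the minus strand. The RefSeq promoter table held 3 of the 10 members, KRT4, KRT8 and KRT20. The 250 bases before the transcript start are shown for KRT4, the gene the set was picked for, and for KRT20, which separates the lines (GRCh38.p14, chr12:52814117-52814366 and chr17:40885243-40885492, both minus strand, written 5′ to 3′ along the gene). Capitals mark TATAAN, searched on the gene's own strand only, and TTTATG or its complement CATAAA, the core bound by caudal (CDX) factors. These matches do not overlap.
KRT4: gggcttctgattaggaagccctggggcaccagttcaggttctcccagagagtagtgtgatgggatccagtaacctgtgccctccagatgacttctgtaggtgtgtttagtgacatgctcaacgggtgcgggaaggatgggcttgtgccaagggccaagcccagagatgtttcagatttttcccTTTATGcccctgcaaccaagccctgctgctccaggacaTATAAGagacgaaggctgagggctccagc
KRT20: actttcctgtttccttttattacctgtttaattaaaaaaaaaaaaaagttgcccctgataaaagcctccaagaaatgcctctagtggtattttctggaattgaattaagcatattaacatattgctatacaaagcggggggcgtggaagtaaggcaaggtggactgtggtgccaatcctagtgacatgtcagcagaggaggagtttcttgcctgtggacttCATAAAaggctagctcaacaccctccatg
On the gene's own strand TATAAN occurred in KRT4 alone of the 3 promoters, and it is present in 13.6% of the 35116 promoters of the table. TTTATG occurred in 1 place in each of KRT4 and KRT20 and in none in KRT8, against 9.64% of all promoters with a match. The AP-1 motif TGANTCA was found in none of the 3 (6.57% of all promoters), and the KLF motif CACCC in 1 place in each (54.7% of all promoters), both strands searched. A match is a match of letters only.

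Library totals ran from 38957142 to 218518344 estimated counts with a median of 51373543, and the deepest was replicate 2 of uracil-treated sensitive DLD-1. Levels are given in TPM, a unit that corrects for transcript length and sums to the same total in every library. The 8 colorectal epithelial markers, EPCAM and CDH1 among them, summed to 1176 to 1351 TPM in sensitive DLD-1 and HT-29. In sensitive HCT-116 they summed to 322 to 361.5 TPM, with CDX1 at or below 0.1 TPM. Under uracil CDX1 was also low in sensitive DLD-1 (mean 0.187 TPM) and HT-29 (0.184 TPM). CDX2 did not follow the sums, at means of 120.1 TPM in DLD-1, 10.57 TPM in HCT-116 and 0.194 TPM in HT-29. The other 7 were higher in HT-29 than in HCT-116. The T cell gene CD3E and the fibroblast gene COL1A2 were at or below 0.1 TPM in every library. Summed immune and endothelial markers reached at most 6.35 and 5.43 TPM, and the mesenchymal markers were higher in HCT-116 (18.08 to 33.7 TPM, mostly COL1A1) than in DLD-1 (1.47 to 4.44 TPM) or sensitive HT-29 (0.904 to 3.08 TPM). In a culture, fewer cells expressing a gene and less RNA per cell cannot be told apart.

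The libraries labelled resistant HT-29 went against their label. Under uracil, 64 genes marked sensitive HCT-116, averaging 10 TPM or more in it and no more than 0.1 TPM in both others. Of these, 62 reached 1 TPM in the uracil libraries labelled resistant HT-29, whereas 0 of 12 HT-29 markers and 0 of 20 DLD-1 markers did. In resistant DLD-1, by contrast, 19 of the 20 DLD-1 markers reached that level, and in resistant HCT-116 62 of its 64. They are called "labelled resistant HT-29" below, and a value that sets them against sensitive HT-29 compares libraries with the marker genes of different lines. Among the keratins 3 more libraries stood apart from their group. Replicate 1 of uracil-treated resistant DLD-1 was the high one for KRT8, at 4271, 3380 and 3351 TPM in replicates 1 to 3. Replicate 3 of uracil-treated resistant HCT-116 stood apart for KRT13 (3.61, 3.82 and 6.96 TPM) and KRT80 (22.7, 21.9 and 15.9 TPM), and so did replicate 3 of resistant HCT-116 under 5-FU+IR (13.2, 12.3 and 5.71 TPM for KRT13, 17.4, 18.1 and 23.3 TPM for KRT80). Results that rest on these 3 libraries are given with and without them. Whether labels were exchanged was not tested.

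Under 5-FU keratins rose in sensitive HT-29 and HCT-116, with the largest log2 fold changes in KRT7, KRT15, KRT23 and KRT80 in HT-29 and in KRT15 and KRT13 in HCT-116. A gene was called where edgeR's quasi-likelihood test gave an adjusted p (Benjamini-Hochberg, over the genes tested in the line) no higher than 0.01 and the log2 fold change was 1 or more in size. KRT4 passed the filter on low counts in DLD-1 and not in HCT-116 or HT-29, so 9 members were tested in those lines. In sensitive HT-29, 6 of 9 rose (KRT7, KRT80, KRT13, KRT15, KRT20 and KRT23) and 0 fell, where 8.86% of the 23756 genes tested rose and 3.30% fell. In sensitive HCT-116, 4 of 9 rose (KRT7, KRT80, KRT13 and KRT15) and 0 fell, where 4.79% of 22975 genes rose and 3.36% fell. The median log2 fold change of the 9 was 1.54 in HT-29 and 0.83 in HCT-116, against 0.03 over all genes in both. In sensitive DLD-1 4 of 10 members had a fitted log2 fold change over 1 (KRT4, KRT13, KRT15 and KRT23), a count by size alone. By size and adjusted p together, 2.66% of the 21814 genes tested there rose and 1.37% fell. Nothing is read from the count of members, since KRT4 chose this comparison.

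Marker genes of other cell types also moved under 5-FU. In sensitive HT-29, 2 of the 3 endothelial markers were tested and both rose, PECAM1 (0.332 to 3.85 TPM, log2 fold change 2.34 ± 0.21) and VWF (3.75 ± 0.44, at means of at most 0.0713 TPM), with CDH5 at or below 0.1 TPM. Their sum was 0.162 to 0.708 TPM under uracil and 3.81 to 4.097 TPM under 5-FU. Of 4 tested mesenchymal markers COL1A1 rose (1.42 ± 0.11) and 0 fell, and the monocyte marker CD14 fell (-1.37 ± 0.21). In sensitive HCT-116, 0 of 2 endothelial and 0 of 2 immune markers were called, and of 3 mesenchymal markers VIM fell (-1.70 ± 0.17). Among colorectal epithelial markers 1 of 8 rose in HT-29 (CEACAM5, 1.52 ± 0.08), and 0 fell. In HCT-116 1 of 5 rose (CDH17, 1.51 ± 0.42, at means of 0.2145 and 0.3669 TPM), and 0 fell. In sensitive DLD-1 0 of 7 rose and VIL1 fell (8.255 to 3.114 TPM, -1.44 ± 0.14). The mesenchymal marker PDGFRB (-1.86 ± 0.28, at means of at most 0.314 TPM) and CD14 (-1.04 ± 0.17) also fell there. The part of these marker genes in the keratin values was not tested.

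**Figure D1:**
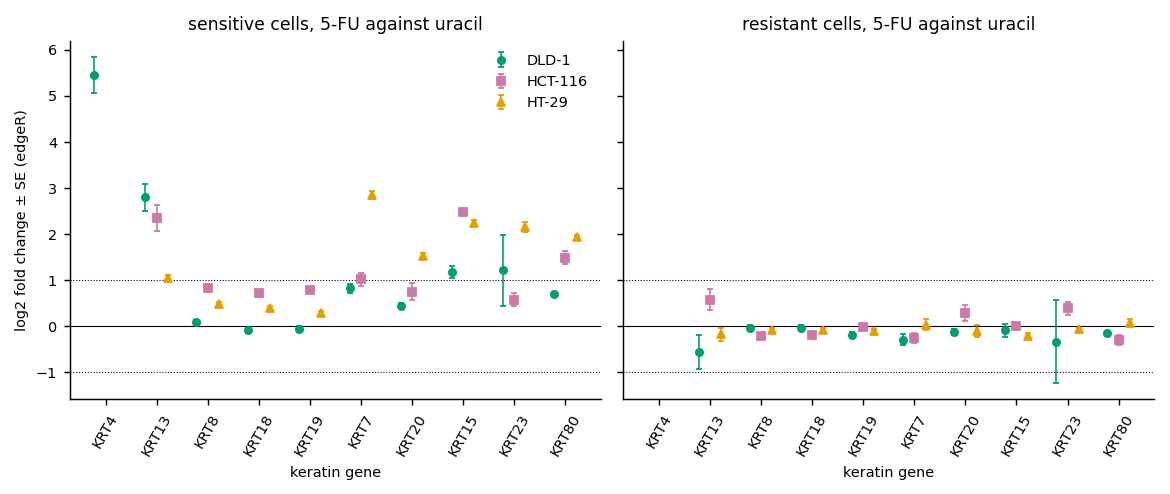
Log2 fold changes (edgeR fit; bars, SE) of the keratins in 5-FU against uracil for sensitive cells (left) and labelled resistant cells (right) of DLD-1, HCT-116 and HT-29; dotted lines mark 1 and -1. In sensitive cells the values reach 5.46 for KRT4 in DLD-1 and 2.85 for KRT7 in HT-29, and 0 members were called in resistant cells. KRT4 is drawn where its counts allow a fold.

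KRT4, the mucosal type II keratin, exceeded 0.1 TPM in the treated sensitive DLD-1 libraries and in 0 of the other 48. Its level was 0.03502, 0.0326 and 0 TPM in the 3 uracil libraries, 1.35, 1.35 and 1.53 TPM under 5-FU and 0.865, 1.04 and 0.803 TPM under 5-FU+IR. The 3 groups did not overlap, and the 5-FU+IR libraries lay between the others. This is a description only, since KRT4 was chosen for its rise in these libraries. In estimated counts these were 3, 11 and 0 under uracil, 167, 120 and 104 under 5-FU and 83, 60 and 69 under 5-FU+IR, and the 11 came from the deepest library. The fitted log2 fold change of 5-FU over uracil was 5.46 ± 0.39 (SE), and 6.03 ± 0.53 without that library. It was 4.83 ± 0.40 for 5-FU+IR over uracil and -0.63 ± 0.26 for 5-FU+IR over 5-FU, also as a description, since these comparisons reuse the libraries that chose the gene.

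In the other 15 conditions KRT4 had at most 3 counts in every library, the detection floor used here. Set against a floor of 3 counts per library, the mean KRT4 count per library total in 5-FU-treated sensitive DLD-1 was at least 30.2-fold higher than in each of these conditions (bounds from 30.2 to 48.9, counting error only). They include resistant DLD-1 under all 3 treatments, where single libraries held 0 to 2 counts. Sensitive HT-29, the line richest in KRT13, held 0 to 3 counts of KRT4. The canonical transcript KRT4-204 (9 exons, 2141 bases) carried 92.5% ± 3.6 (SD, n = 3) of the TPM of KRT4 under 5-FU. Even there KRT4 was a minor keratin: its mean of 1.41 TPM ranked 15180 among all genes, while KRT8 ranked 25.

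**Figure D2:**
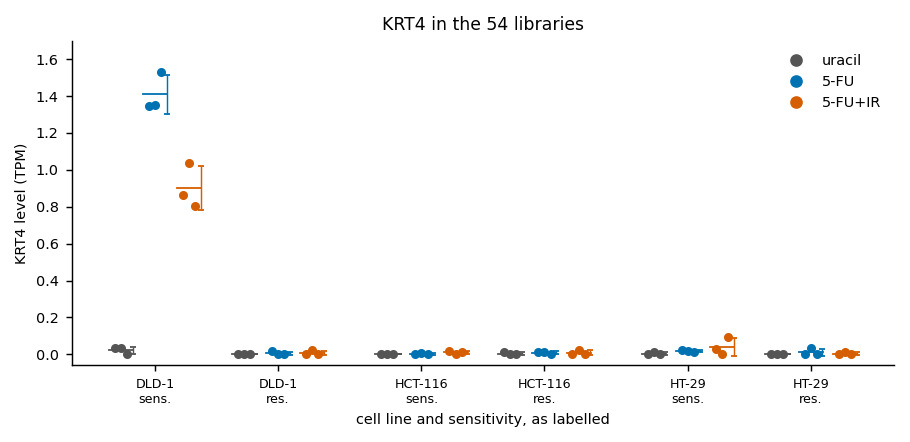
KRT4 level in TPM in each of the 54 libraries (points), with the mean (horizontal line) and SD (bar) of each condition, by line and labelled sensitivity. Sensitive DLD-1 under 5-FU (1.35 to 1.53 TPM) and under 5-FU+IR (0.803 to 1.04 TPM) stands off 0, and no other library reaches 0.1 TPM.

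KRT13, the type I partner of KRT4 in mucosa, was read in all lines, at condition means that spanned a 1196-fold range. In sensitive HT-29 it read 74.3, 78.8 and 76.5 TPM under uracil and 193, 184 and 185 TPM under 5-FU. The groups were far apart, with a log2 fold change of 1.06 ± 0.06 (adjusted p = 1.44e-14). In sensitive HCT-116 it read 1.398, 1.41 and 1.08 TPM and then 5.85, 4.75 and 5.51 TPM, a log2 fold change of 2.35 ± 0.28 (adjusted p = 3.04e-07). Sensitive DLD-1 had the lowest level, with 0.218, 0.119 and 0.145 TPM under uracil and 1.07, 1.62 and 0.9301 TPM under 5-FU, and a fitted value of 2.80 ± 0.30. In each line every treated library lay above every control library. The response was smaller in HT-29, where KRT13 was most abundant, than in HCT-116: the difference was -1.28 ± 0.13 on the log2 scale (adjusted p = 4.29e-08, a fit of the 12 libraries of both).

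KRT8 and its partner KRT18 made up most of the keratin message. In sensitive HT-29, KRT8 read 3865, 4035 and 3716 TPM under uracil and 6319, 6322 and 6394 TPM under 5-FU, and KRT18 read 3409, 3596 and 3225 TPM and then 5391, 5273 and 5297 TPM. Treated and control libraries did not overlap for either gene. The fitted log2 fold changes were 0.48 ± 0.05 for KRT8 (adjusted p = 2.98e-09) and 0.40 ± 0.05 for KRT18 (adjusted p = 9.65e-08), past the p threshold and under the required size. The fit is scaled to the bulk of genes and TPM to the sum over all transcripts, so the 2 scales give different folds. With scaling by library totals alone KRT8 had 0.63, and the median of all genes moved from 0.03 to 0.19.

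In sensitive HCT-116 the same pair started lower. KRT8 read 1071, 998 and 1064 TPM under uracil and 1850, 1851 and 1889 TPM under 5-FU, with a log2 fold change of 0.83 ± 0.07 (adjusted p = 6.39e-10). KRT18 read 699, 634 and 684 TPM and then 1117, 1122 and 1153 TPM, with 0.73 ± 0.06 (adjusted p = 1.24e-09). Both groups stood apart, and both changes were again under the required size. In sensitive DLD-1, KRT8 read 2594, 2562 and 2666 TPM and then 2940, 2981 and 3040 TPM, with a fitted value of 0.09 ± 0.06. KRT18 had -0.07 ± 0.06 there and 0.03 with scaling by totals alone, so no direction is given. The transcript KRT8-201 carried 89.05% ± 1.8 of the TPM of KRT8 in sensitive DLD-1 under uracil and 91.4% ± 0.83 under 5-FU, and in sensitive HT-29 72.2% ± 1.9 and 76.1% ± 1.9 (SD, n = 3). Both genes have many processed pseudogenes, whose rows held at most 0.847% (KRT8) and 0.33% (KRT18) of the counts of gene and pseudogenes in any library.

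KRT19, the other type I partner of KRT8, varied least of the members, with a 2.54-fold range of condition means. Among the sensitive lines it was highest in HCT-116, at 879, 792 and 852 TPM under uracil and 1491, 1475 and 1503 TPM under 5-FU. The log2 fold change was 0.80 ± 0.04 in HCT-116 (adjusted p = 8.75e-13) and 0.29 ± 0.05 in HT-29 (adjusted p = 2.17e-05), both under the required size. In sensitive DLD-1 it read 601, 591 and 657 TPM and then 637, 630.0 and 649 TPM. Those groups overlapped, with a fitted value of -0.06 ± 0.07, and of 0.04 with scaling by totals alone.

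KRT7, the ductal type II keratin, had the largest log2 fold change of the 9 members in HT-29. It read 5.67, 5.200 and 4.61 TPM under uracil and 45.2, 42.7 and 42.4 TPM under 5-FU, a log2 fold change of 2.85 ± 0.09 (adjusted p = 1.98e-19). In sensitive HCT-116 it read 3.89, 5.000 and 4.14 TPM and then 9.57, 8.87 and 9.87 TPM. That change was 1.02 ± 0.15 (adjusted p = 4.53e-06), close to the required size, and it was under it without replicate 3 of uracil (0.95) or replicate 3 of 5-FU (0.94). In sensitive DLD-1 it went from 11.04, 12.9 and 11.5 TPM to 21.8, 20.5 and 23.1 TPM, with a fitted value of 0.82 ± 0.10. The response was larger in HT-29 than in HCT-116 by 1.83 ± 0.14 (adjusted p = 7.63e-10). KRT7-212, a short transcript with no defined coding sequence, carried 55.8% ± 2.5 of the TPM of KRT7 in HT-29 under 5-FU, and the canonical KRT7-201 12.6% ± 0.85.

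KRT20, the keratin of differentiated enterocytes and goblet cells, separated the lines. Under uracil it read 159, 172 and 153 TPM in sensitive HT-29, 51.97, 50.98 and 53.9 TPM in sensitive DLD-1 and 1.71, 1.31 and 1.56 TPM in sensitive HCT-116. Under 5-FU the HT-29 libraries read 563, 557 and 551 TPM, a log2 fold change of 1.54 ± 0.05 (adjusted p = 1.31e-18). HCT-116 read 2.55, 2.44 and 2.46 TPM, with 0.75 ± 0.18 (adjusted p = 0.00158), under the required size. DLD-1 read 75.4, 78.8 and 77.6 TPM, with a fitted value of 0.45 ± 0.06. Treated libraries lay above control libraries in all 3 lines.

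KRT15, the basal cell keratin, rose in both tested lines. In HCT-116 it read 18.9, 20.98 and 18.1 TPM under uracil and 90.2, 91.2 and 92.2 TPM under 5-FU, with a log2 fold change of 2.49 ± 0.05 (adjusted p = 1.68e-19). In HT-29 it read 7.54, 7.73 and 7.69 TPM and then 29.8, 29.4 and 29.99 TPM, with 2.24 ± 0.06 (adjusted p = 2.43e-20). Replicates of each group lay close together beside these changes. The difference between the 2 responses, -0.25 ± 0.07 (adjusted p = 0.0081), missed the threshold with DESeq2 (adjusted p = 0.0129) and in other settings. In DLD-1 the levels were lower, at 1.99, 1.86 and 1.55 TPM and then 5.28, 4.47 and 4.91 TPM, with a fitted value of 1.18 ± 0.13.

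KRT23, low in HT-29, rose there from 0.732, 0.675 and 0.907 TPM under uracil to 4.37, 4.08 and 4.502 TPM under 5-FU, a log2 fold change of 2.16 ± 0.11 (adjusted p = 4.59e-15). In sensitive HCT-116 it read 5.03, 4.77 and 3.87 TPM and then 7.05, 6.75 and 6.63 TPM, with 0.58 ± 0.14 (adjusted p = 0.0014), under the required size. In sensitive DLD-1 it was near the limit of detection, with 0, 20 and 2 counts under uracil and 6, 9 and 12 under 5-FU. The groups overlapped in TPM, and the fitted value moved from 1.22 ± 0.77 to 2.80 ± 1.20 without the deepest library. It had the widest error of the 10 members in that comparison.

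KRT80, a type II keratin, rose in HT-29 and HCT-116. In HT-29 it read 28.7, 31.4 and 28.6 TPM under uracil and 132, 137 and 133 TPM under 5-FU, with a log2 fold change of 1.94 ± 0.05 (adjusted p = 8.39e-21). In HCT-116, where it was lower, it read 2.09, 2.35 and 1.896 TPM and then 5.805, 6.08 and 6.13 TPM, with 1.49 ± 0.13 (adjusted p = 2.79e-09). In DLD-1 it went from 30.2, 30.9 and 30.2 TPM to 52.9, 55.99 and 51.3 TPM, with a fitted value of 0.70 ± 0.05. Treated and control libraries did not overlap in any of the 3 lines.

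**Figure D3:**
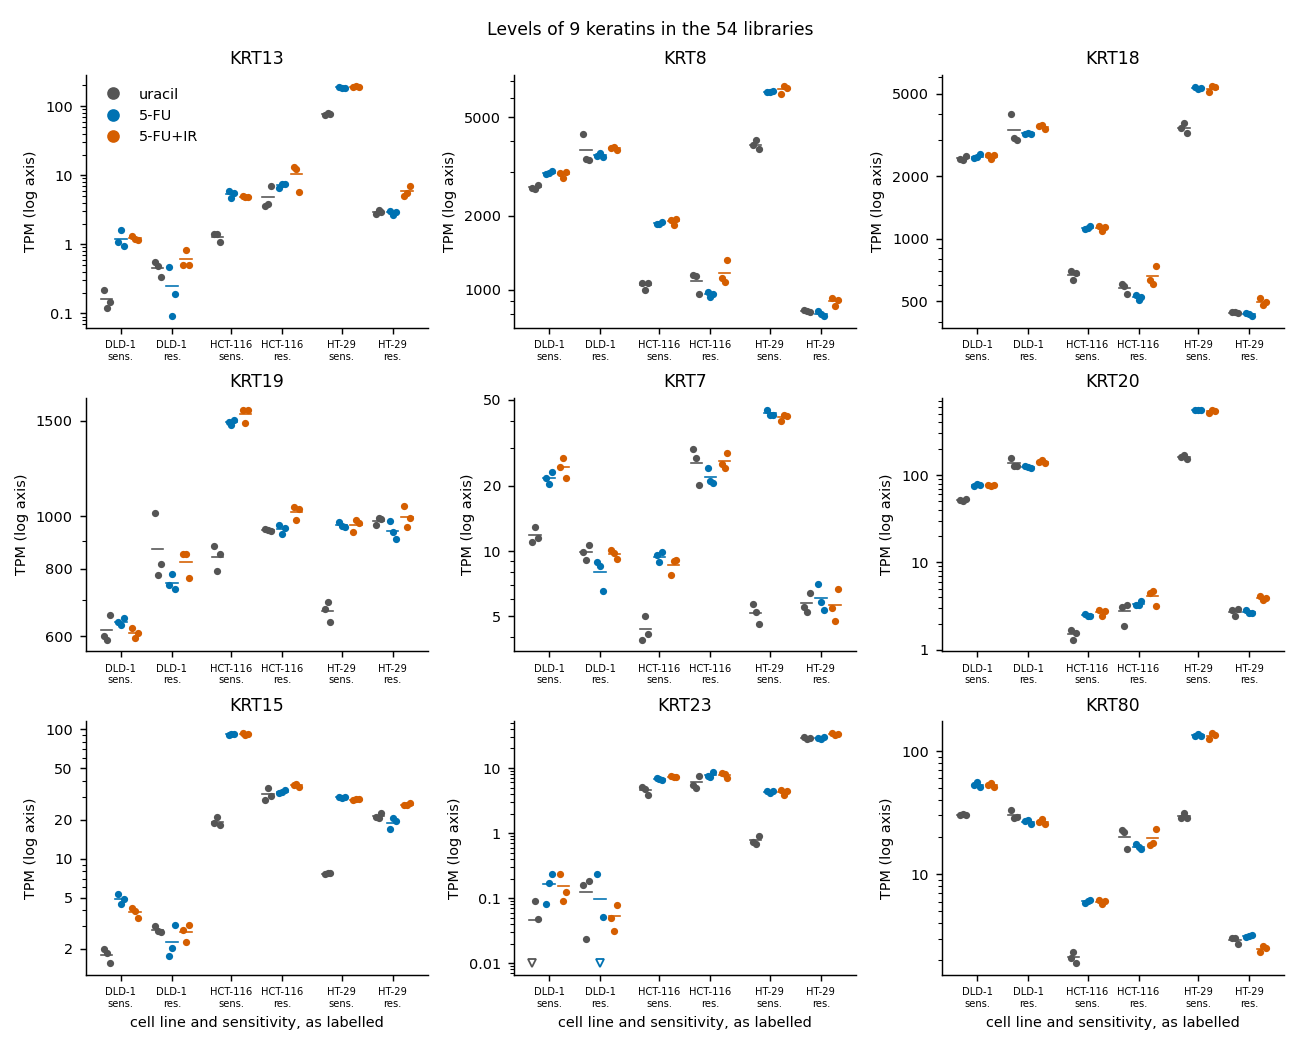
Levels of the 9 members other than KRT4 in each of the 54 libraries (points, TPM on a log axis; lines, condition means; open triangles, libraries at 0, drawn at 0.01), by line and labelled sensitivity. KRT7 in sensitive HT-29, for example, lies at 4.61 to 5.67 TPM under uracil and at 42.4 to 45.2 TPM under 5-FU.

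Summed over the 55 keratin genes of the table, keratins held 0.8297% ± 0.039 of all TPM in sensitive HT-29 under uracil and 1.37% ± 0.007 under 5-FU (SD, n = 3). The shares were 0.267% ± 0.012 and 0.469% ± 0.0055 in sensitive HCT-116, and 0.582% ± 0.014 and 0.636% ± 0.011 in sensitive DLD-1. KRT8, KRT18 and KRT19 together made up 91.9% to 97.2% of keratin TPM over the 18 conditions. The ratio of type I to type II keratin TPM was 1.19 ± 0.01 under uracil and 1.07 ± 0.008 under 5-FU in sensitive DLD-1. It was 1.54 ± 0.021 and 1.49 ± 0.0045 in sensitive HCT-116, and 1.12 ± 0.012 and 1.096 ± 0.017 in sensitive HT-29. The libraries of the 2 treatments did not overlap in DLD-1 and HCT-116 and overlapped in HT-29.

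**Figure D4:**
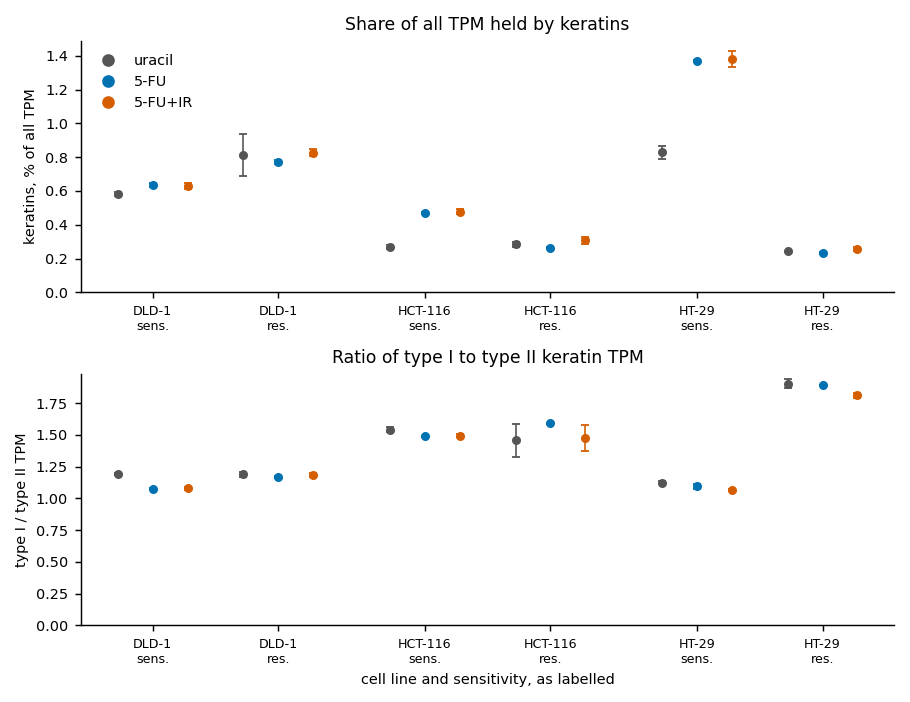
Share of all TPM held by the 55 keratin genes (percent) and ratio of type I to type II keratin TPM in each condition; points and bars give the mean and SD of 3 libraries. The share is higher under 5-FU in sensitive HT-29 (0.8297% to 1.37%), and the ratio is highest, 1.903, in uracil-treated labelled resistant HT-29.

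With irradiation added to 5-FU, 0 members were called against 5-FU alone in any sensitive line. Of all genes 0 were called with edgeR in sensitive DLD-1 (0%; 2447 had an unadjusted p under 0.05, and DESeq2 called 0), 0 in sensitive HCT-116 (0%; 1943, and 0 with DESeq2) and 2 in sensitive HT-29 (0.00842%). The 9 members in HT-29 had log2 fold changes from -0.08 ± 0.07 (KRT7) to 0.02 ± 0.05 (KRT13). Against uracil, 5-FU+IR gave 6 of 9 members higher in HT-29 (8.95% of all genes), 3 of 9 in HCT-116 (4.48%) and, with KRT4 left out, 2 of 9 in DLD-1 (3.06%). In the 3 lines 0 members were lower, beside 3.30%, 3.90% and 1.55% of genes. These comparisons share their uracil libraries with those of 5-FU. KRT7 in HCT-116 had 0.98 ± 0.15, just under the required size, and 1.08 with scaling by totals alone. In DLD-1 the 2 members were KRT13 (2.85 ± 0.30, adjusted p = 9.66e-08) and KRT15 (1.06 ± 0.13, adjusted p = 1.38e-06), the latter at 0.97 without replicate 1 of uracil.

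Under uracil the sensitive lines differed in most members. Set against HCT-116, HT-29 had more KRT20 (log2 difference 6.97 ± 0.13), KRT13 (6.55 ± 0.20), KRT80 (3.93 ± 0.11), KRT18 (2.45 ± 0.08) and KRT8 (1.97 ± 0.08), and less KRT23 (-2.24 ± 0.23) and KRT15 (-1.50 ± 0.08). That is 5 of 9 higher, where 16.4% of genes were, and 2 lower, where 22.2% were. Between DLD-1 and HCT-116, 5 of 9 were higher in DLD-1 (13.5% of genes): KRT20, KRT80, KRT18, KRT8 and KRT7. The 3 lower ones (17.7%) were KRT23 (-6.13 ± 0.32), KRT15 (-3.20 ± 0.08) and KRT13 (-2.77 ± 0.38). Between HT-29 and DLD-1, 4 of 9 were higher in HT-29 (14.0%), namely KRT13 (9.32 ± 0.24), KRT23 (3.88 ± 0.40), KRT20 (1.77 ± 0.09) and KRT15 (1.695 ± 0.09), and 0 were lower (17.8%). KRT15 and KRT23 were thus highest in HCT-116, and KRT20 and KRT13 in HT-29. KRT80 did not pass between HT-29 and DLD-1 (0.10 ± 0.09, adjusted p = 0.318), and no pair of lines differed by the required size in KRT19.

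In resistant DLD-1, KRT20 was the member called against sensitive cells. It read 158, 127 and 126 TPM in the uracil libraries against 51.97, 50.98 and 53.9 TPM in sensitive cells, with no overlap and a log2 fold change of 1.36 ± 0.06 (adjusted p = 3.71e-13). Without replicate 1, the library that stood apart, it was 1.26 ± 0.05. It was 1 of 9 members called higher, where 3.69% of genes were, and 0 were lower (2.01% of genes). KRT8 (0.47 ± 0.06), KRT18 (0.43 ± 0.06) and KRT19 (0.48 ± 0.07) had adjusted p-values of at most 1.99e-05 at changes under the required size, and without replicate 1 the values were 0.37 ± 0.04, 0.30 ± 0.04 and 0.37 ± 0.05. KRT13 was at 1.05 ± 0.35 (adjusted p = 0.0218), and without replicate 1 of sensitive uracil it was called (1.35, adjusted p = 0.00609). KRT4 had 0 counts in the resistant uracil libraries.

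In resistant HCT-116, 3 members were higher than in sensitive cells under uracil, where 4.17% of genes were, and 0 were lower (6.80%). KRT80 read 22.7, 21.9 and 15.9 TPM against 2.09, 2.35 and 1.896 TPM (3.21 ± 0.13, adjusted p = 5.9e-15). KRT7 read 29.6, 26.96 and 20.2 TPM against 3.89, 5.000 and 4.14 TPM (2.51 ± 0.14, adjusted p = 1.37e-12). KRT13 read 3.61, 3.82 and 6.96 TPM against 1.398, 1.41 and 1.08 TPM (2.14 ± 0.29, adjusted p = 1.79e-06). Without replicate 3 of resistant uracil, which stood apart in these genes, the values were 3.36 ± 0.11, 2.67 ± 0.12 and 1.77 ± 0.26, and the 3 calls held. The comparison shares its sensitive uracil libraries with the 5-FU response above. KRT8, the main type II keratin, did not pass (0.01 ± 0.07, adjusted p = 0.933).

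In resistant cells 0 members were called between 5-FU and uracil in any line. KRT4 in resistant DLD-1 held 0 or 1 counts per library, too few to be called. Of all genes 3 were called in DLD-1 (0.0138%), 0 with edgeR in HCT-116 (0%; 1878 had an unadjusted p under 0.05, and DESeq2 called 1) and 1 in labelled resistant HT-29 (0.00421%). In HCT-116 KRT7 had -0.25 ± 0.12, KRT80 -0.29 ± 0.11 and KRT15 0.02 ± 0.05. Without replicate 3 of uracil KRT7 was at -0.40 ± 0.10, KRT80 at -0.44 ± 0.09 and KRT15 at 0.02 ± 0.05. KRT23 then reached an adjusted p of 0.00552 at 0.63 ± 0.11, under the required size. In resistant DLD-1 0 members were called without replicate 1 of uracil, with KRT8 at 0.07 ± 0.04 and KRT18 at 0.10 ± 0.04.

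When irradiation was added to 5-FU in resistant cells, KRT13 in labelled resistant HT-29 was the 1 member of 9 called higher, where 0.349% of genes were, and 0 were lower (0.0842% of genes). It read 3.09, 2.69 and 2.99 TPM under 5-FU and 5.01, 5.57 and 7.03 TPM under 5-FU+IR, with no overlap and a log2 fold change of 1.16 ± 0.12 (adjusted p = 9.59e-08). In resistant HCT-116 KRT13 read 6.61, 7.43 and 7.37 TPM and then 13.2, 12.3 and 5.71 TPM, with 0.52 ± 0.21 (adjusted p = 0.175). There 0 of 9 members were called (0.0261% of genes were higher), and without replicate 3 of 5-FU+IR, the low one, KRT13 was at 0.77 ± 0.17 (adjusted p = 0.00988), under the required size. In resistant DLD-1 0 members were called, where 0.142% of genes were. KRT4 passed the filter through the sensitive libraries and held at most 2 counts in a resistant one, too few to be called.

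The difference between the 5-FU responses of resistant and sensitive cells was tested as an interaction, called at an adjusted p of at most 0.01 alone. In HCT-116, 7 of 9 members had a lower response in resistant cells and 0 a higher one, where 11.4% and 18.3% of genes did. KRT15 differed most (-2.48 ± 0.07, adjusted p = 1.07e-16), then KRT80 (-1.78 ± 0.17) and KRT13 (-1.76 ± 0.37). KRT20 (-0.45 ± 0.25, adjusted p = 0.169) and KRT23 (-0.19 ± 0.20, adjusted p = 0.487) did not pass. The 7 calls held without replicate 3 of resistant uracil, where KRT13 was at -1.38 ± 0.31. In HT-29, 9 of 9 had a lower response in the labelled resistant libraries, where 16.1% of genes did (19.3% had a higher one), with KRT7 (-2.81 ± 0.14), KRT15 (-2.44 ± 0.08) and KRT23 (-2.22 ± 0.12) in front. In DLD-1 no such test was made, because the sensitive response chose the genes. Between sensitive HT-29 and HCT-116 the response was larger in HT-29 for 4 of 9 members (KRT7, KRT23, KRT20 and KRT80, where 19.9% of genes were) and larger in HCT-116 for 5 (KRT13, KRT19, KRT8, KRT18 and KRT15, 18.4%). The KRT15 difference was lost with DESeq2, with scaling by totals, without the filter and in 10 of 12 fits that left out a library, and the KRT18 difference in 7 of the 12, so that 7 to 9 of the 9 members were called over the 12 fits.

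The keratin profile of labelled resistant HT-29 was far from that of sensitive HT-29. Under uracil KRT20 read 2.87, 2.41 and 2.93 TPM against 159, 172 and 153 TPM (log2 difference -6.22 ± 0.08). KRT13 read 2.72, 3.12 and 2.96 TPM against 74.3, 78.8 and 76.5 TPM (-5.29 ± 0.09), and KRT23 read 30.02, 27.9 and 28.7 TPM against 0.732, 0.675 and 0.907 TPM (4.69 ± 0.09). In all, 7 of 9 members were called, where 39.4% of genes were, 2 of them higher (KRT23 and KRT15) and 5 lower (KRT20, KRT13, KRT80, KRT18 and KRT8). Set against sensitive HCT-116 instead, KRT23 (2.46 ± 0.18, adjusted p = 3.57e-10) and KRT13 (1.27 ± 0.25, adjusted p = 0.000353) were higher, 2 of 9 where 1.82% of genes were, and 0 were lower (5.04%). KRT15 differed by 0.01 ± 0.07 and KRT19 by 0.05 ± 0.07 there. The colorectal epithelial markers summed to 226.6 to 241.2 TPM in these libraries, with CDX1 and CEACAM5 at or below 0.1 TPM. The sums were 239.3 to 267.3 TPM in resistant HCT-116 and 1176 to 1312 TPM in sensitive HT-29. Under uracil 7 of the 8 markers were called lower than in sensitive HT-29. CDX2 was called higher, at 11.42 against 0.1938 TPM (5.815 ± 0.14). The ratio of type I to type II keratin TPM was 1.903 ± 0.035 under uracil, the highest of the 18 conditions.

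**Figure D5:**
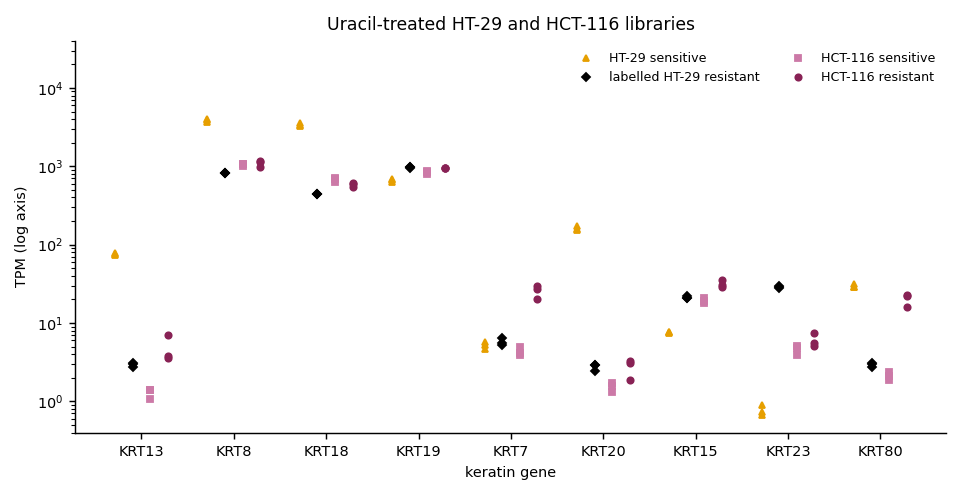
Levels of 9 keratins (TPM, log axis) in the uracil libraries of sensitive HT-29, labelled resistant HT-29, sensitive HCT-116 and resistant HCT-116; each point is 1 library. KRT20 of the labelled resistant HT-29 libraries lies by the HCT-116 points and below sensitive HT-29 (2.41 to 2.93 against 153.1 to 171.9 TPM), and KRT23 lies above the other groups.

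Other genes of the same systems were counted from lists that were chosen with earlier results of these data known. Nothing is read from the list counts of 5-FU against uracil in sensitive DLD-1, since KRT4 chose that comparison. Of the 45 other keratins, 14 reached a mean of 1 TPM in a condition. Under 5-FU, 8 of the 18 that passed the filter rose in sensitive HT-29 and 0 fell, 7 of 18 rose in sensitive HCT-116 and 0 fell, and 3 of 11 rose and 1 fell in sensitive DLD-1, beside the 8.86%, 4.79% and 2.66% of all genes that rose. In HT-29 the hair keratins KRT81 (0.133 to 11.97 TPM, log2 fold change 6.26 ± 0.17), KRT83 (3.14 ± 0.22) and KRT86 (2.96 ± 0.13) led. They are close paralogs between which reads are divided by estimate, so their separate values are uncertain. In HCT-116 KRT81 (1.58 ± 0.25) and KRT32 (1.22 ± 0.22) were those with a mean of at least 1 TPM. In resistant HCT-116 under uracil, 11 of 18 were higher than in sensitive cells, among them KRT34 (5.27 ± 0.46), KRT81 (4.66 ± 0.21) and KRT86 (3.98 ± 0.21), and 0 were lower, beside 4.17% and 6.80% of all genes. Without replicate 3 of resistant uracil 10 of 20 were higher and 1 lower, 9 of them called in both fits, and KRT81 was at 4.86 ± 0.17. In resistant DLD-1 2 of 11 were higher and 0 lower (3.69% and 2.01% of all genes), and 1 of 12 was higher without replicate 1 of resistant uracil. In labelled resistant against sensitive HT-29 12 of 18 were higher and 4 lower. Of the 23756 genes tested there 5092 were higher and 4266 lower, 39.4% in both directions together.

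Genes of the desmosomes and hemidesmosomes, which anchor keratins at the cell surface, were counted in the same way. In sensitive HT-29, 7 of 18 rose under 5-FU and 0 fell (of all genes 8.86% and 3.30%), with the cytolinkers PPL (22.8 to 75.2 TPM, 1.47 ± 0.05), EPPK1 (1.09 ± 0.05) and DST (1.01 ± 0.07) in front. In sensitive HCT-116 0 of 17 rose and 1 fell (4.79% and 3.36%), and in sensitive DLD-1 0 of 16 rose and 1 fell (2.66% and 1.37%). The median log2 fold changes of the tested genes were 0.68, -0.15 and 0.23. In resistant HCT-116 the linker EPPK1 (-1.43 ± 0.07) and the desmosomal plakoglobin JUP (-1.12 ± 0.05) were the 2 of 17 lower than in sensitive cells, and 0 were higher, beside 6.80% and 4.17% of all genes. The same 2 were called without replicate 3 of resistant uracil. In resistant DLD-1 0 of 16 were higher and 1 lower (3.69% and 2.01% of all genes), with the same counts without replicate 1. In labelled resistant HT-29 1 of 18 was higher and 9 lower, where 5092 of all 23756 genes were higher and 4266 lower (39.4% together).

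Of the squamous differentiation genes, the group in which KRT4 and KRT13 are usually read, 10 of 17 rose and 1 fell in sensitive HT-29, where 8.86% and 3.30% of all genes did. In HCT-116 1 of 11 rose and 0 fell (4.79% and 3.36%), and in DLD-1 4 of 16 rose and 1 fell (2.66% and 1.37%). The DLD-1 count is a description only, since KRT4 chose that comparison. In HT-29 the cornified envelope precursors SPRR1A (4.15 ± 0.56) and SPRR1B (3.91 ± 0.29) and the matrix protein ECM1 (3.96 ± 0.07) led. In DLD-1 the transcription cofactor VGLL1 (3.87 ± 0.28), the envelope protein SCEL (5.86 to 21.9 TPM, 1.78 ± 0.09) and the transglutaminase TGM1 (1.35 ± 0.08) led. In HCT-116 the 1 gene was SBSN (1.81 ± 0.26). Between resistant and sensitive cells under uracil, 4 of 11 were higher and 3 lower in HCT-116 (4.17% and 6.80% of all genes), led by the protease inhibitor CSTA (-4.05 ± 0.22) and the epithelial transcription factor GRHL3 (-2.61 ± 0.24), both lower, and the membrane protein EMP1 (2.12 ± 0.06), higher. The same 7 were called without replicate 3 of resistant uracil, with CSTA at -4.56 ± 0.23. The counts were 2 of 16 higher and 1 lower in DLD-1 (3.69% and 2.01%), the same 3 genes without replicate 1. In labelled resistant HT-29 5 of 17 were higher and 9 lower, where 5092 of all 23756 genes were higher and 4266 lower (39.4% together).

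The genes whose 18 condition means were most like those of KRT4 were sought by Pearson's r on log2(TPM + 0.1), among 21995 genes that averaged 1 TPM or more in any condition. They were RNU6-299P (r = 0.994), MIR107 (0.915), YTHDC1 (0.902), MIR571 (0.901) and RNU7-110P (0.900). The 4 other than YTHDC1 are short RNAs with means of 0.711 to 1.20 TPM in 5-FU-treated sensitive DLD-1, and YTHDC1, a reader of methylated RNA, had means of 67.9 TPM under uracil and 80.9 TPM under 5-FU there. The conditions share lines and libraries, and the likeness rests on the 2 conditions with KRT4 above 0.1 TPM. The order depends on the settings: with a pseudocount of 1 the 5 genes ranked 1, 8, 31, 42 and 33, and with no minimum level, among 49128 genes, they ranked 7, 72, 88, 91 and 93.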

How the data were processed

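RNA-seq was analysed from 54 libraries. Per the labels' processing notes and the study's methods, the authors trimmed reads with Trimmomatic 0.36 and quantified them with kallisto 0.44.0. The authors deposited estimated counts per gene and TPM per gene and per transcript, with GRCh38.p13 named as the build. Because kallisto divides reads between similar transcripts by estimate, values of close paralogs and pseudogenes are less certain. Counts were rounded and tested with edgeR 4.0.16 (TMM, filterByExpr, quasi-likelihood; R 4.3.3) over the 18 libraries of a line (6 groups, 12 residual degrees of freedom), over the 18 uracil libraries, and over 12 libraries for the difference in response. Benjamini-Hochberg adjustment covered all genes tested. TPM was used for levels. The steps were tested on simulated data.

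The members and lists were chosen with earlier results of these data known. Named list genes are up to 3 with the largest change among those called at a mean of at least 1 TPM. Alternatives were DESeq2 1.42.0, scaling by totals, no filter, only the compared groups, the deepest library thinned, pseudogene counts added, a replicate block and each library left out. Same-numbered replicates did not deviate together (correlations from -0.0818 to 0.103). All 54 replicate pairs differed by more than sampling noise (chi-square per degree of freedom at least 2.25). The value of 1 immune marker is not reported here.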

Additional observations from a re-analysis of the deposited data

Results flagged for a closer look

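The following 25 differences in 5-FU response between groups passed an adjusted p of 0.01 in edgeR's quasi-likelihood test of the difference itself, and are given as log2 values. In resistant against sensitive HCT-116 the response was lower for KRT15 (-2.48), KRT80 (-1.78), KRT13 (-1.76), KRT7 (-1.27), KRT8 (-1.03), KRT18 (-0.91) and KRT19 (-0.82). In labelled resistant against sensitive HT-29 it was lower for KRT7 (-2.81), KRT15 (-2.44), KRT23 (-2.22), KRT80 (-1.86), KRT20 (-1.64), KRT13 (-1.22), KRT8 (-0.56), KRT18 (-0.48) and KRT19 (-0.40). Those libraries expressed the marker genes of HCT-116, so line and resistance cannot be told apart in them. Between sensitive HT-29 and HCT-116 the response was larger in HT-29 for KRT7 (1.83), KRT23 (1.58), KRT20 (0.79) and KRT80 (0.45), and larger in HCT-116 for KRT13 (-1.28), KRT19 (-0.50), KRT8 (-0.35), KRT18 (-0.32) and KRT15 (-0.25). The last 2 missed the threshold in 7 and 10 of 12 fits that left out a library, and KRT15 also with DESeq2, scaling by totals, no filter and the replicate block.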

How the results depend on the processing

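No member's call turned its direction under any alternative run, and with DESeq2 217 of 218 tested member values kept their side of the threshold. Counts of genes called were unstable where few were called. For 5-FU+IR against 5-FU in sensitive cells, DLD-1 went from 0 to 42 without the filter, HCT-116 from 0 to 50 without the filter and 2 with only the compared groups (0 to 2 with a library left out), and HT-29 from 2 to 0 with DESeq2, 1 with scaling by totals, 51 without the filter and 5 with only the compared groups (0 to 2). For 5-FU against uracil in resistant cells, DLD-1 went from 3 to 0 with DESeq2 and with only the compared groups, 74 without the filter and 1 with the replicate block (0 to 11), HCT-116 from 0 to 1 with DESeq2 and 58 without the filter (0 to 3), and HT-29 from 1 to 2 with DESeq2 and 48 without the filter (1 to 2). For 5-FU+IR against 5-FU in resistant cells, DLD-1 went from 31 to 14 with DESeq2 and 111 without the filter (11 to 26), HCT-116 from 6 to 2, 76 and, with only the compared groups, 1 (2 to 6), and HT-29 from 103 to 67 and 189. Members called went from 2 to 1 (5-FU+IR against uracil, sensitive DLD-1) and from 1 to 2 (resistant against sensitive DLD-1) without replicate 1 of sensitive uracil. With scaling by totals alone the calls moved towards higher in sensitive DLD-1 (5-FU, 580 higher and 298 lower to 758 and 212; 5-FU+IR against uracil, 668 and 338 to 923 and 227), in sensitive HT-29 (2105 and 785 to 2681 and 478; 2127 and 783 to 2799 and 511) and in labelled resistant HT-29 against sensitive HT-29 (5092 and 4266 to 6129 and 3322) and HCT-116 (428 and 1182 to 601 and 1008). They moved towards lower in the interactions of HCT-116 (4196 and 2618 to 3479 and 3271) and HT-29 (4585 and 3822 to 3539 and 5044). The replicate numbers share no source in the labels. With them as a block the KRT15 difference in response missed the threshold (adjusted p = 0.013), as it did with DESeq2 (0.0129), scaling by totals (0.0439), no filter (0.0319) and in 10 of 12 fits without a library, and the KRT18 difference missed it in 7 of the 12. The cause was not tested. Without the libraries that stood apart, chosen after seeing the data, other keratins called in resistant DLD-1 went from 2 to 1. Low counts limit KRT4 outside sensitive DLD-1 and KRT23 in DLD-1.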
